A study of Mus musculus with 12 samples.

Results

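AP-1 and Egr1 immediate early genes were followed in heart cells of the c-Kit lineage, 8 of the 15223 genes in the deposited tables. They were chosen by symbol: Fos, Fosb, Jun, Junb, Jund, Egr1, Atf3 and Ier2. All 8 were listed in each of the 11 c-Kit(+) libraries. The mice were 8-week C57BL/6 c-KitCreERT2/mTeG animals given tamoxifen at 0.5 mg/day over 14 days, so that Cre driven from the c-Kit locus marked c-Kit(+) cells and their progeny with eGFP, and that label was shared by every group. Cells were taken 1 day before myocardial infarction (MI; pre-MI, n = 3), 1 day after MI (day 1, n = 2), and 12 days after MI from mice given Sfrp2 (n = 3) or vehicle (n = 3) on day 2. A single library of cardiomyocytes from sham mice was also sequenced. The labels of both day 1 libraries also say vehicle, although the stated treatment came later, and the tables' column names give day 14 where the labels give day 12, which was followed here. Nothing in the labels ties the replicates of a group to different mice, so p-values here reflect library-to-library spread only, and part of that may be technical.

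AP-1 is a family of DNA-binding dimers in which a Fos protein pairs with a Jun protein, or Jun proteins pair with each other or with an ATF protein. Most of their genes are immediate early genes: they are transcribed within minutes of a growth factor, stress or injury signal, without new protein synthesis, and their mRNAs are short-lived. Egr1 is a zinc finger transcription factor and Ier2 a nuclear protein induced by the same signals. The same genes are also known to be induced when tissue is dissociated into single cells, and their induction by ischemia and reperfusion is well described in heart.

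Promoters of the paired family members are shown first because their values differ within each pair, as given below. RefSeq promoters (GRCm38.p6, 250 bases before to 50 after the transcript start) were on hand for 6 of the 8 members, and 4 are printed, 5′ to 3′ on the gene's strand: Fos at chr12:85473640-85473939 (plus strand), Fosb at chr7:19309996-19310295 (minus), Jun at chr4:95052173-95052472 (minus) and Junb at chr8:84978699-84978998 (minus). Capitals mark TGACG, a partial match to the ATF and CREB site, TGACATCA, a variant AP-1 site known in the Jun promoter, and TATAAA. Both strands were searched.
Fos: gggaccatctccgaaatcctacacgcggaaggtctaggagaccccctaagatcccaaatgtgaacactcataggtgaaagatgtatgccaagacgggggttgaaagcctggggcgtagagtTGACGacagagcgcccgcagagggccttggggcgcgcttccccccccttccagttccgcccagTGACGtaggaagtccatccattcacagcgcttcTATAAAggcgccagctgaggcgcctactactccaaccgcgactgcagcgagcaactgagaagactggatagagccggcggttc
Fosb: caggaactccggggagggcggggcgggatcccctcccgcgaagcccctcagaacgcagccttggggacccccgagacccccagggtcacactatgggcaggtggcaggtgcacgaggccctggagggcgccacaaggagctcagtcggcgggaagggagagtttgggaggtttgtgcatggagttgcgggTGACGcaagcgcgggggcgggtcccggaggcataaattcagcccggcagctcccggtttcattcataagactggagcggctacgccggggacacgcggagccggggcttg
Jun: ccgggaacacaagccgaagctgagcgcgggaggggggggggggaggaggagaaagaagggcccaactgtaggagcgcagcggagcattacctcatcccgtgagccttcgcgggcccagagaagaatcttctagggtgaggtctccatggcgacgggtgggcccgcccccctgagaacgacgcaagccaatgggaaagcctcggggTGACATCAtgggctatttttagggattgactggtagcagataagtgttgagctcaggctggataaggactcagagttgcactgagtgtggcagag
Junb: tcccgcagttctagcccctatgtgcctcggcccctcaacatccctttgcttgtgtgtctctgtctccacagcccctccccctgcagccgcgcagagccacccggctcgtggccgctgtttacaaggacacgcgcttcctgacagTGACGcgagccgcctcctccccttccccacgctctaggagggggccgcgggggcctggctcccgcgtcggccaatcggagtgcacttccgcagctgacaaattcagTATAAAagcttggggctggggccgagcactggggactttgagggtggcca
TGACG occurred at 2 places in the Fos window, at 1 in Fosb, Junb and Atf3, and at none in Jun and Jund, and in 20.9% of 32544 RefSeq promoters of the same length. It lay 66 to 62 bases before the start in Fos and 60 to 56 before it in Fosb. TGACATCA occurred in Jun alone among the 6 and in 3.37% of all promoters. TATAAA was in the Fos and Junb windows and in 13.6% of all promoters. In Fos it lay 33 to 28 bases before the start, and in Junb on bases 1 to 6 of the annotated transcript. Neither the full AP-1 site TGANTCA (7.79% of all promoters, where N is any base) nor the full site TGACGTCA (1.8%) was found in these 6 windows. The Jund window, chr8:70697489-70697788, ended before the Jund start used below (chr8:70698949), so it does not describe the sequence at that start. TGACG is part of TGACGTCA. A match is a description of letters, not a measured site.

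The deposited values are gene counts that the authors divided by a size factor with DESeq2, called normalized counts below. Within a library they proved to be multiples of a fixed step, so the reads behind them could be recovered. Recovered totals ranged from 1793826 to 2085161 reads in day 1 libraries, 1159703 to 2683841 in Sfrp2 libraries, 200641 to 2349774 in vehicle libraries and 3462396 to 3570993 in pre-MI libraries. Mitochondrial genes took 85.3% and 88.5% of reads in day 1 libraries, 59.7% to 88.2% in Sfrp2 libraries, 3.87% to 84.4% in vehicle libraries and 94.5% to 97.2% in pre-MI libraries. Outside them, 97858 to 618599 reads per library remained. Vehicle replicate 3 stood apart: it had the fewest reads, and its 8 members held 35 reads together. A background level was taken as the 95th percentile, per exon kb, of 99 olfactory, vomeronasal and taste receptor genes in the same library. In vehicle replicate 3 that level was 17.4 per kb and 0 of 8 members lay above it, whereas all 8 lay above it in each of the other 10 c-Kit(+) libraries. The members' differences and correlations that use vehicle replicate 3 are therefore also given without it.

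Fos encodes the founding Fos protein of AP-1. Its gene lies at chr12:85473890-85477273 on the plus strand (GRCm38). It had 144, 156 and 211 normalized counts in the 3 pre-MI libraries, 133 and 56.2 at day 1, 103, 65.3 and 131 at day 12 with Sfrp2, and 50.6, 235 and 5.61 with vehicle. Pre-MI libraries were all above those of day 1 and of Sfrp2, while the vehicle libraries spread over 41.9-fold, on both sides of the pre-MI range. The log2 difference was -0.95 for day 1 minus pre-MI (SE 0.418, limma's adjusted p = 0.186) and -0.80 for Sfrp2 minus pre-MI (SE 0.321, limma's adjusted p = 0.0605), so neither passed the threshold of 0.05.

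Fosb encodes a Fos relative with a long-lived splice form. The gene spans chr7:19302696-19310051 on the minus strand. It had 61.5, 77.1 and 151 normalized counts before MI, 110 and 101 at day 1, 52.8, 24.5 and 54.0 with Sfrp2, and 26.5, 250 and 7.48 with vehicle. Day 1 values lay inside the pre-MI range, while the Sfrp2 libraries lay below every pre-MI and every day 1 library. The log2 difference of Sfrp2 was -1.10 from pre-MI (SE 0.433, limma's adjusted p = 0.0570) and -1.34 from day 1 (SE 0.372, unadjusted p = 0.00302, limma's adjusted p = 0.103). Neither difference passed.

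Jun encodes c-Jun, the main transactivating Jun protein. It is a gene of 1 exon at chr4:95049034-95052222 on the minus strand. It had 116, 167 and 274 normalized counts before MI, 74.2 and 68.9 at day 1, 47.9, 28.9 and 73.6 with Sfrp2, and 39.7, 190 and 16.8 with vehicle. All day 1 and Sfrp2 libraries were below all pre-MI libraries. Jun fell in Sfrp2 libraries, with 50.1 ± 22.4 against 186 ± 80.4 in pre-MI libraries (SD, n = 3 each) and a log2 difference of -1.88 (SE 0.425, limma's adjusted p = 0.00568). At day 1 the difference was -1.28 (SE 0.384, unadjusted p = 0.0223, limma's adjusted p = 0.0775) and did not pass. An antisense gene, Junos, overlaps Jun on the plus strand, held 2 to 21 reads in the c-Kit(+) libraries, and cannot be separated from Jun without stranded counting, which the sources used here do not state.

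Junb encodes a Jun protein that is a weaker activator and can oppose c-Jun. It lies at chr8:84974484-84978718 on the minus strand. It had 26.5, 25.1 and 61.3 normalized counts before MI, 70.2 and 64.3 at day 1, 62.0, 15.1 and 33.9 with Sfrp2, and 18.7, 81.0 and 3.74 with vehicle. Junb was the only member whose day 1 libraries were both above all 3 pre-MI libraries, by a narrow gap to pre-MI replicate 3. The day 1 mean was 67.2 ± 4.17 (SD, n = 2) against 37.6 ± 20.5 before MI (SD, n = 3), a log2 difference of 0.94 (SE 0.442, limma's adjusted p = 0.207) that did not pass. Without pre-MI replicate 3 the difference was 1.35 (SE 0.179, limma's adjusted p = 0.0429) and was called, as were 2049 of 15223 genes called higher. Junb overlaps Prdx2 on the opposite strand, and Prdx2 had 9.68 and 6.89 at day 1 against 18.0, 34.1 and 28.4 before MI.

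Jund encodes the Jun protein that is present in most resting cells and is less inducible than the others. It is a gene of 1 exon at chr8:70698949-70700616 on the plus strand. It had 48.3, 52.0 and 73.8 normalized counts before MI, 85.5 and 70.0 at day 1, 50.7, 18.2 and 54.8 with Sfrp2, and 24.9, 153 and 9.35 with vehicle. Its libraries overlapped between pre-MI and each later group, with log2 differences of 0.43 at day 1 (SE 0.248, limma's adjusted p = 0.288) and -0.61 with Sfrp2 (SE 0.434, limma's adjusted p = 0.257).

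Atf3 encodes a stress-induced ATF protein that pairs with Jun proteins and often represses. It lies at chr1:191170296-191218039 on the minus strand. It was the member with the lowest level per kb before MI, with 7.57, 14.3 and 21.6 normalized counts, and had 25.8 and 13.8 at day 1, 7.75, 11.9 and 16.8 with Sfrp2, and 7.79, 45.1 and 0 with vehicle. The groups overlapped in every comparison with pre-MI, where it rested on 8, 8 and 19 reads. Its log2 difference from pre-MI was 0.47 at day 1 (SE 0.527) and -0.19 with Sfrp2 (SE 0.444), with limma's adjusted p of 0.557 and 0.733.

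Egr1 encodes a zinc finger factor that is outside AP-1 and is induced through the serum response factor. It lies at chr18:34859823-34864984 on the plus strand. It had 198, 271 and 368 normalized counts before MI, 176 and 91.8 at day 1, 63.4, 42.1 and 93.6 with Sfrp2, and 47.5, 278 and 20.6 with vehicle. Day 1 and Sfrp2 libraries were all below the pre-MI libraries. Egr1 had the largest difference among the 8 in Sfrp2 libraries, where it fell to 66.4 ± 25.9 against 279 ± 85.4 in pre-MI libraries (SD, n = 3 each), a log2 difference of -2.08 (SE 0.364, limma's adjusted p = 0.00162). At day 1 the difference was -1.08 (SE 0.397, unadjusted p = 0.0434, limma's adjusted p = 0.125) and did not pass.

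Ier2 encodes a small nuclear protein of the immediate early response. It is a gene of 1 exon at chr8:84661331-84662852 on the minus strand. It had 18.9, 16.1 and 47.7 normalized counts before MI, 16.9 and 14.9 at day 1, 13.4, 5.65 and 4.50 with Sfrp2, and 3.89, 15.2 and 1.87 with vehicle. Both day 12 groups lay below the lowest pre-MI library, while day 1 overlapped with it. Ier2 fell in Sfrp2 libraries by 1.66 on the log2 scale (SE 0.517, limma's adjusted p = 0.0235), with 7.84 ± 4.83 against 27.6 ± 17.5 in pre-MI libraries (SD, n = 3 each). The call was lost without Sfrp2 replicate 2 (adjusted p = 0.119), without Sfrp2 replicate 3 (0.121) and without pre-MI replicate 3 (0.0561), with log2 differences of -1.52, -1.38 and -1.20.

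**Figure D1:**
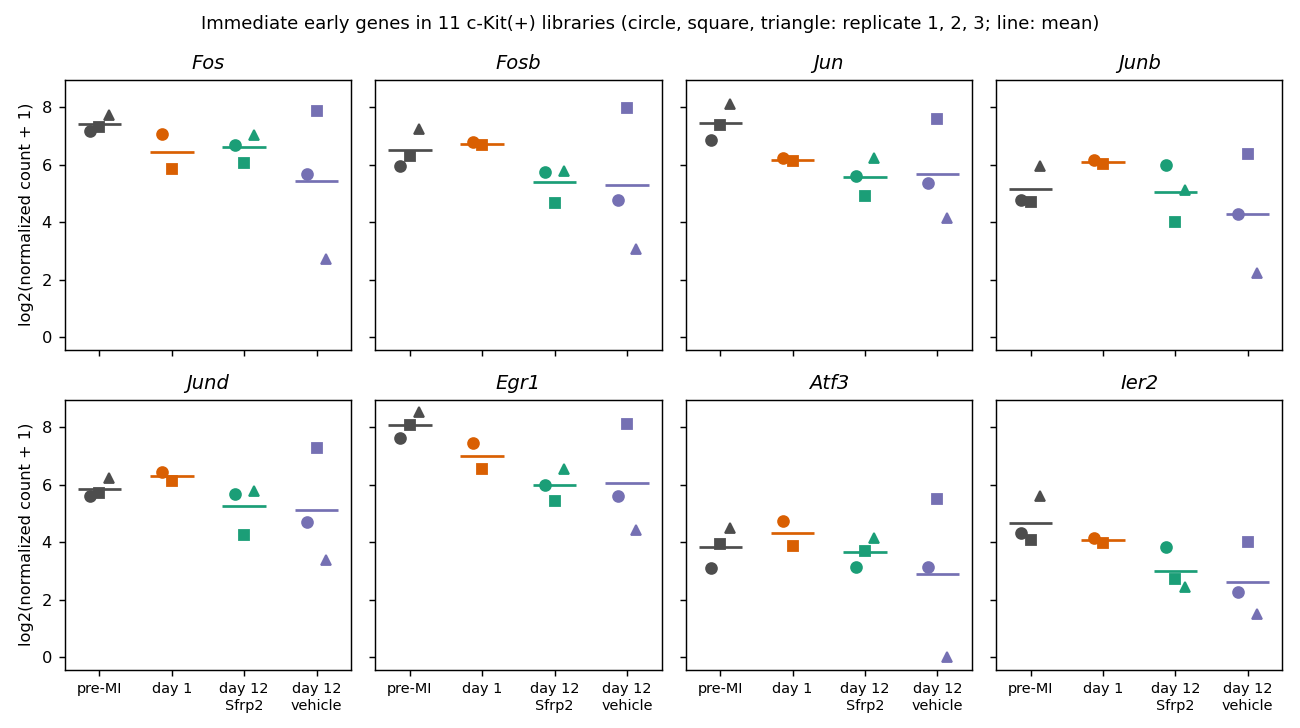
Log2(normalized count + 1) of each member in the 11 c-Kit(+) libraries. Points are libraries, shaped by replicate number, and lines are group means. Sfrp2 libraries of Egr1 and Jun sit below all pre-MI libraries, and vehicle replicates 2 and 3 are the highest and the lowest vehicle library in every panel.

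Day 1 was compared with pre-MI to ask whether the early response genes were high 1 day after injury. The limma fit called 0 of 8 members in either direction, where 2 had an unadjusted p under 0.05 (Jun and Egr1, both lower), as had 36.4% of all genes. edgeR on the recovered reads called 3 lower (Fos, Jun and Egr1; 4.35% of all genes) and DESeq2 called 1 lower (Jun; 1.88%). In the same limma fit 2.65% of all 15223 genes were called lower and 21.3% higher. When the test was limited to genes averaging at least 10, Jun (adjusted p = 0.0148) and Egr1 (0.0327) were called lower by limma, as were 11.6% of the 3740 genes tested. The libraries of the groups did not overlap for 3 members that were lower at day 1 (Fos, Jun and Egr1) and 1 that was higher (Junb), where 10.4% of all genes were separated and lower and 39.6% separated and higher.

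Sfrp2 libraries of day 12 were compared with pre-MI in the same way. By limma 3 of 8 members fell (Egr1, Jun and Ier2) and none rose, against 8.82% of all genes called lower and 48.8% called higher. In the authors' deposited table the same 3 members had an adjusted p under the threshold: Egr1 0.0307, Jun 0.0380 and Ier2 0.0474. Over all genes of the authors' deposited table, 5096 were under it in either direction, and 4.56% were under it and lower. At an unadjusted p under 0.05 there were 5 members, and 63.4% of all genes. All 8 members had a log2 difference below 0, and 5 were separated from pre-MI without overlap (Fos, Fosb, Jun, Egr1 and Ier2), against 11.5% of all genes separated and lower. Egr1 and Jun were called in every alternative that was run, without each library in turn included. On the recovered reads, edgeR called 5 members lower (Egr1, Fos, Fosb, Ier2 and Jun), where 2091 of 15223 genes were called lower. DESeq2 called 4 lower (Egr1, Fosb, Ier2 and Jun), where 1067 of 15223 genes were. In these bulk samples fewer cells of a type and less RNA per cell cannot be told apart.

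The vehicle libraries of day 12 gave log2 differences from pre-MI below 0 for all 8 members, between -0.75 (Jund) and -2.06 (Ier2), with SEs of 0.727 to 1.14. The limma fit called 0 members and 0% of all genes, where 3 members (Jun, Egr1 and Ier2) and 33.8% of all genes had an unadjusted p under 0.05. edgeR and DESeq2 also called 0 members, and called 0.236% and 0.762% of all genes lower. Ier2 was the 1 member separated from pre-MI without overlap, against 7.08% of all genes separated and lower. Without vehicle replicate 3 the difference moved to -0.61 for Fos, -0.12 for Fosb, -0.99 for Jun, -1.22 for Egr1 and -1.52 for Ier2, and was above 0 for Junb (0.18), Jund (0.12) and Atf3 (0.48). Without vehicle replicate 2, limma called 6 members lower (Fos, Fosb, Jun, Jund, Egr1 and Ier2), at log2 differences of -1.82 (Jund) to -3.19 (Fos). That fit called 6.5% of all genes lower, which was 989 genes, and 5432 genes higher. Vehicle replicate 2 was the highest vehicle library for 8 of 8 members and the highest of all 11 for 5. It was also the vehicle library with the highest summed level of macrophage and monocyte markers, 1308 against 154 and 176 in the other two, and of erythroid markers, 5023 against 647 and 13.1. Summed endothelial, cardiomyocyte, fibroblast, neutrophil, and smooth muscle and pericyte markers were likewise highest in vehicle replicate 2 among the vehicle libraries. Lymphocyte markers and those of mast cells and c-Kit were not. The high marker levels of vehicle replicate 2 were thus not particular to macrophages and erythroid cells. The part of any of these cell types in the members' levels was not tested.

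**Figure D2:**
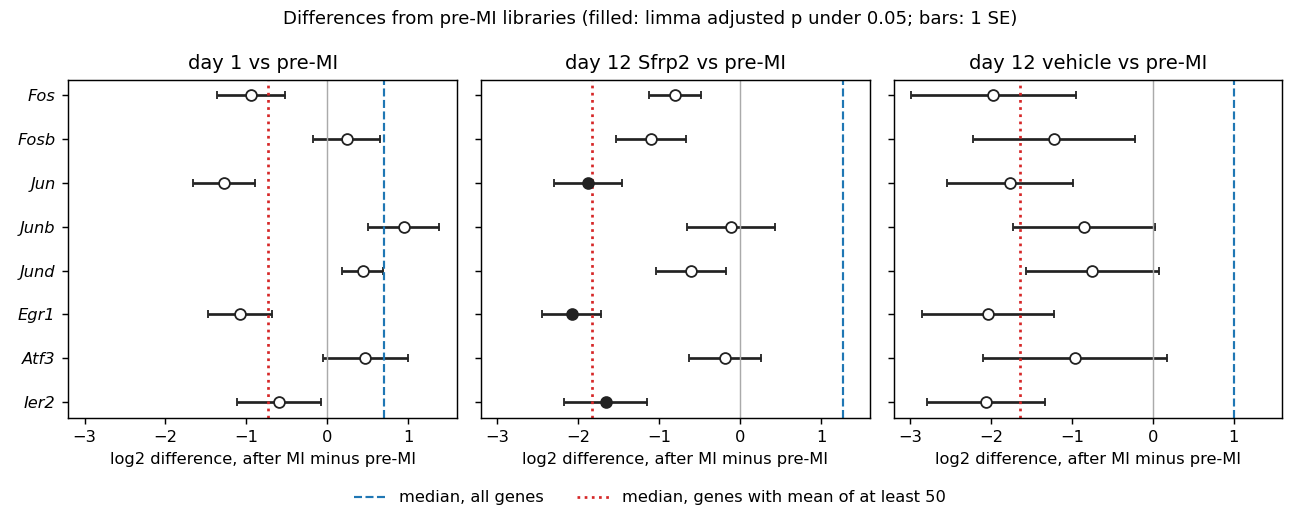
Log2 difference of each member after MI minus pre-MI, with 1 SE, in 3 comparisons that share the pre-MI libraries. Filled points passed the limma threshold (Jun, Egr1 and Ier2 with Sfrp2). The dashed line is the median of all genes and the dotted line that of genes averaging at least 50.

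These differences depend on what the libraries are scaled to. The median of all 15223 genes was 0.70 at day 1, 1.27 with Sfrp2 and 1.00 with vehicle on the log2 scale relative to pre-MI, where 33.9% to 42.1% of genes were at 0. For the genes that averaged at least 50 normalized counts, the median was -0.74 (498 genes), -1.83 (375 genes) and -1.65 (457 genes). The members' own medians were -0.18, -0.95 and -1.49, so in each comparison the members' median lay between those 2 medians. With Sfrp2, Egr1 (-2.08) and Jun (-1.88) lay below the median of genes averaging at least 50, and the other members above it. Of these more abundant genes, 35.5% were called lower at day 1 and 84% with Sfrp2. When libraries were scaled to abundant genes, a choice made after seeing the data, the Sfrp2 difference was -1.25 for Egr1 and -1.05 for Jun, both still called, where 3.34% of all genes were called lower. It was -0.89 for Ier2, no longer called, and 0.03 for Fos and 0.70 for Junb. That scaling moved the median of all genes to 1.82 with Sfrp2 and 0.88 at day 1. When libraries were centred on their median gene instead, all 8 members were called lower with Sfrp2, as were 29.6% of all genes, and 4 (Fos, Jun, Egr1 and Ier2) at day 1, as were 14.5% of all genes. The share of higher among all calls was 88.9% at day 1 as deposited, 20.1% centred on the median and 78.4% scaled to the total outside mitochondrial genes. With Sfrp2 it was 84.7% as deposited, 37.5% centred and 95.2% scaled to abundant genes.

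Ranks within a library do not use a scaling between libraries. Among 15201 genes outside the mitochondrial genome, Egr1 ranked 86, 55 and 41 before MI, 55 and 128 at day 1, and 148, 112 and 50 with Sfrp2. Fos ranked 137, 117 and 86 before MI, 81 and 300 at day 1, and 63, 41 and 33 with Sfrp2. In all 3 Sfrp2 libraries Fos thus ranked above every pre-MI library, although its normalized count was lower there. Ranked per exon kb instead, Fos was at 43, 51 and 32 with Sfrp2 against 66, 62 and 50 before MI, so the groups overlapped. By normalized count, Junb ranked 1338, 1407 and 476 before MI but 220 and 237 at day 1. The members together made up 28.0 and 20.2 per 10000 reads outside mitochondrial genes at day 1, 17.9, 7.20 and 18.3 with Sfrp2, and 7.54, 55.9 and 1.81 with vehicle, against 34.5, 44.4 and 58.7 before MI.

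**Figure D3:**
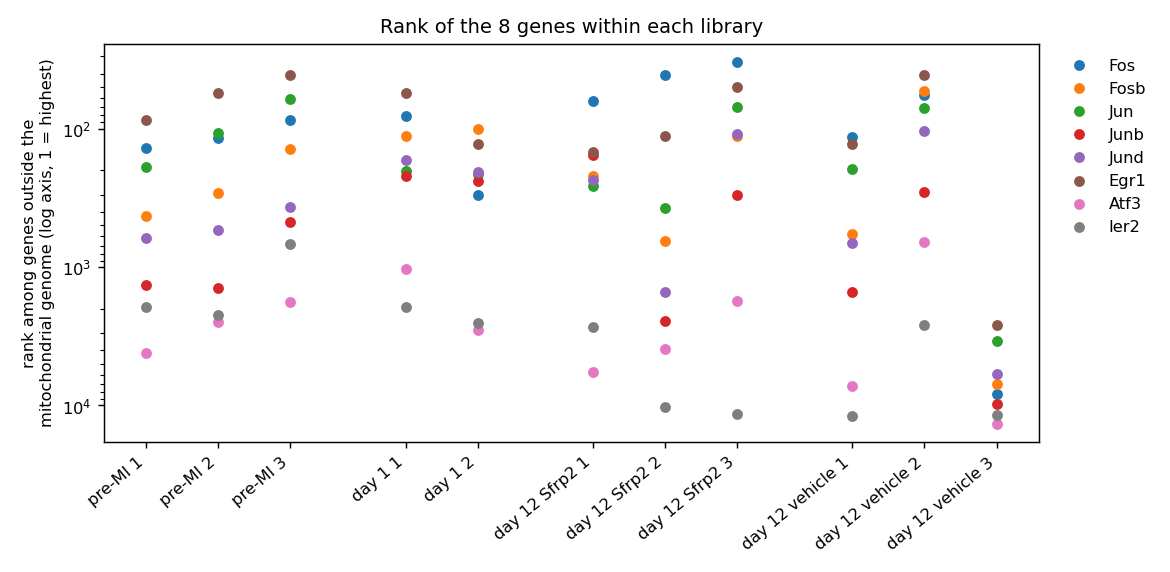
Rank of each member among 15201 genes outside the mitochondrial genome, on a log axis with rank 1 at the top, in each c-Kit(+) library. Fos sits at ranks 33 to 63 in the Sfrp2 libraries, and no member ranks above 2632 in vehicle replicate 3.

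The order of the members by level was taken per kb. Per kb of exon, the order before MI was Fos (72.4 ± 15.3), Egr1 (62.2 ± 19.1), Jun (58.2 ± 25.2), Jund (34.8 ± 8.28), Ier2 (18.1 ± 11.5), Junb (16.4 ± 8.92), Fosb (15.5 ± 7.67) and Atf3 (6.73 ± 3.25) normalized counts per kb (SD, n = 3). The first 3 differed by less than their spread, as did Ier2, Junb and Fosb. Jun and Jund also differed by less than the SD of Jun. At day 1 Jund (46.6 ± 6.56, SD, n = 2) and Fos (40.2 ± 23.1) differed by less than their spread, with Fos above Jund in replicate 1 and below it in replicate 2, and Junb (29.2 ± 1.81) stood above Jun (22.4 ± 1.18). With Sfrp2 the order was Fos (42.4 ± 14.1), Jund (24.7 ± 12.0), Junb (16.1 ± 10.3), Jun (15.7 ± 7.04) and Egr1 (14.8 ± 5.78). There Jund, Junb, Jun and Egr1 differed by less than the SD of Jund. Vehicle means had SDs above the mean for all 8 members, so no order is read from them.

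Each member's share of the 8 genes' summed level per kb does not depend on the scaling either. Jun made up 9.63% and 12.8% at day 1 and 9.94%, 11.8% and 13.8% with Sfrp2, against 17.5%, 20.9% and 21.8% before MI. Egr1 made up 16.2% and 12.2% at day 1 and 9.36%, 12.2% and 12.5% with Sfrp2, against 21.2%, 24.1% and 20.8% before MI. Both shares were thus lower than in every pre-MI library. Jund took 21.2% and 24.9% at day 1 and 20.1%, 14.2% and 19.7% with Sfrp2, against 13.9%, 12.4% and 11.2% before MI. Junb took 12.6% and 16.6% at day 1 and 17.8%, 8.52% and 8.85% with Sfrp2, against 5.54%, 4.35% and 6.76% before MI. Both had higher shares in every such library. At day 1 the shares of Fosb (7.33% and 9.61%) and Atf3 (4.96% and 3.80%) also lay above all pre-MI libraries (4.74%, 4.93% and 6.14% for Fosb, and 1.69%, 2.66% and 2.54% for Atf3), while with Sfrp2 they overlapped with them. Each of these 10 differences without overlap had a 2-sided exact permutation p of 0.1, the smallest that 2 or 3 against 3 libraries can give. With vehicle, the shares of Jund (19.1%, 21.9% and 25.6%) and Junb (10.4%, 8.39% and 7.42%) also lay above all pre-MI libraries (exact p = 0.1 each), while those of Jun and Egr1 overlapped with them. Without vehicle replicate 3, Jun made up 16.0% and 14.2% and Egr1 13.6% and 14.8%, below all pre-MI libraries.

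**Figure D4:**
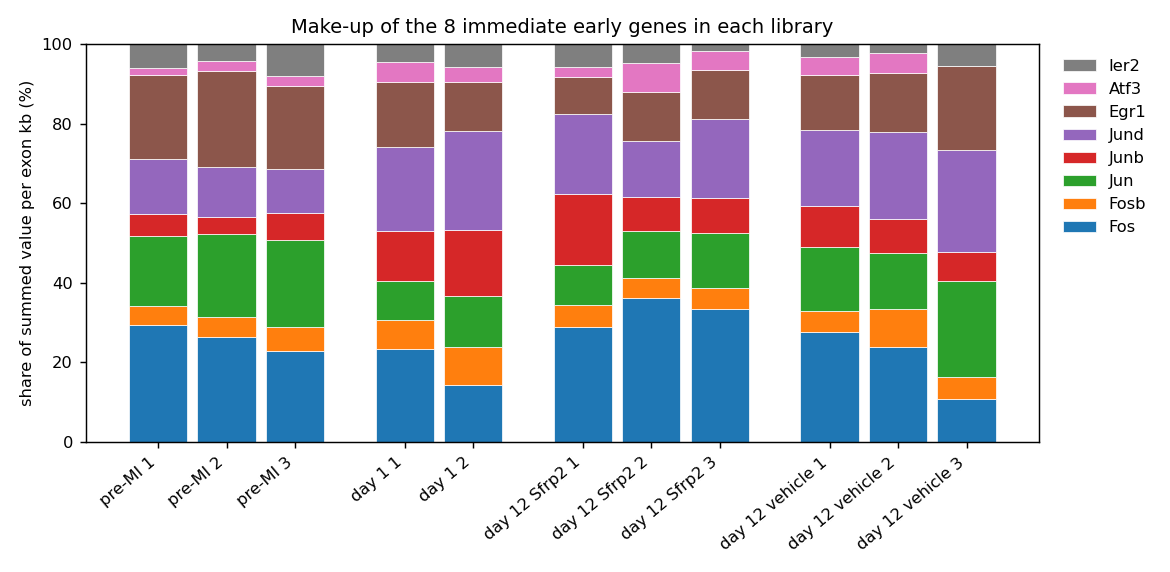
Share of each member in the summed normalized count per exon kb of the 8 genes, in percent, for each c-Kit(+) library. The bands of Jun and Egr1 are narrower, and those of Junb and Jund wider, at day 1 and with Sfrp2 than in each pre-MI library.

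Ratios of paired genes were chosen after their values were seen, so they are given without a test. Jun over Junb was 1.06 and 1.07 at day 1, 0.773, 1.92 and 2.17 with Sfrp2, and 2.12, 2.35 and 4.50 with vehicle, against 4.39, 6.64 and 4.46 before MI. Egr1 over Jund was 2.06 and 1.31 at day 1, 1.25, 2.31 and 1.71 with Sfrp2, and 1.91, 1.82 and 2.20 with vehicle, against 4.10, 5.21 and 4.98 before MI. The ratio of Egr1 to Jund was below every pre-MI library in all 8 later libraries. The last vehicle value of each ratio is replicate 3, where every member lay below background. There Egr1 and Jund held 11 and 5 reads, Jun and Junb 9 and 2, and Fosb and Fos 4 and 3. Fosb over Fos was 0.830 and 1.80 at day 1, 0.514, 0.375 and 0.411 with Sfrp2, and 0.523, 1.06 and 1.33 with vehicle, against 0.428, 0.494 and 0.715 before MI, so that it was above pre-MI in both day 1 libraries and not with Sfrp2.

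Sfrp2, a secreted Wnt antagonist, was set against vehicle at day 12. The limma fit called 0 of 8 members and 0% of all genes, and 0 members had an unadjusted p under 0.05, against 219 of all genes (1.44%). edgeR and DESeq2 on the recovered reads also called 0. In normalized counts both groups overlapped for every member, where 2.33% of all genes were separated and lower with Sfrp2 and 4.93% separated and higher. In shares of the 8 genes' summed level per kb, Fos was higher with Sfrp2 (28.9%, 36.1% and 33.5% against 27.6%, 23.8% and 10.9%). Jun (9.94%, 11.8% and 13.8% against 16.0%, 14.2% and 24.1%) and Egr1 (9.36%, 12.2% and 12.5% against 13.6%, 14.8% and 20.9%) were lower. Each had a 2-sided exact permutation p of 0.1, and the other members' shares overlapped. These 3 also stayed separated without vehicle replicate 3, the last value of each. In shares not divided by exon length, Fos and Egr1 stayed separated. Jun overlapped there (12.0%, 13.6% and 15.9% with Sfrp2 against 18.1%, 15.2% and 25.7% with vehicle). Egr1 averaged 66.4 ± 25.9 with Sfrp2 and 115 ± 141 with vehicle (SD, n = 3 each), a log2 difference of -0.05 with a 95% interval of -1.90 to 1.80. Fos averaged 99.8 ± 33.1 with Sfrp2 and 97.1 ± 122 with vehicle, with a difference of 1.17 and an interval of -1.18 to 3.51. Differences of that size in either direction could not be detected. Without vehicle replicate 2 all 8 differences were above 0 (0.83 to 2.39), and without vehicle replicate 3 all 8 were below 0 (-0.14 to -0.98), with no member called either way. A fit with a weight per library called 6 members higher with Sfrp2 (Fos, Fosb, Junb, Jund, Egr1 and Atf3), where 7.15% of all genes were called higher (1089 genes) and 1096 genes lower.

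**Figure D5:**
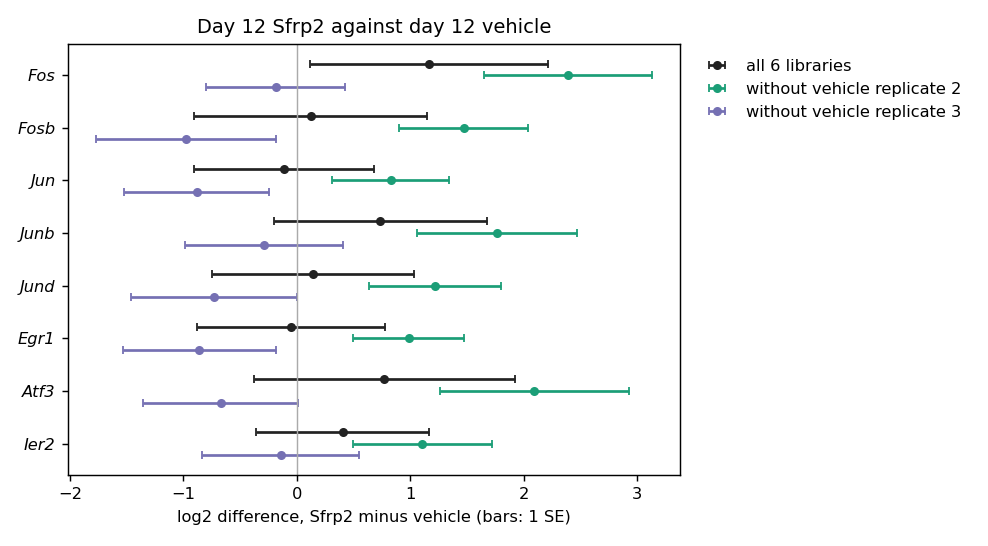
Log2 difference of each member, day 12 Sfrp2 minus day 12 vehicle, with 1 SE, for all 6 libraries and without vehicle replicate 2 or 3. Every point lies above 0 without replicate 2 and below 0 without replicate 3.

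Against day 1, Sfrp2 libraries of day 12 were lower for 7 of 8 members (Fos, at 0.15, was the exception). None was called by limma, where 0.145% of all genes were called lower and 0% higher, 5 members and 21.1% of all genes had an unadjusted p under 0.05, edgeR called 0 members (0.769% of all genes lower) and DESeq2 called 1 lower (Fosb; 1.58% of all genes). Fosb, Junb, Jund and Ier2 were separated without overlap, against 10.6% of all genes separated and lower. Vehicle libraries of day 12 had differences from day 1 of -0.49 (Jun) to -1.79 (Junb), with SEs of 0.879 to 1.29. There 0 members and 0% of all genes were called by limma, 0 members and 1.12% of all genes had an unadjusted p under 0.05, and edgeR and DESeq2 called 0 members. Without vehicle replicate 3 the difference from day 1 was above 0 for Fos (0.33), Jun (0.28) and Atf3 (0.016) and between -0.14 (Egr1) and -0.92 (Ier2) for the other 5 members, with none called. Both day 12 comparisons share the day 1 libraries.

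Across the 11 libraries the members moved together. Pearson correlations of log2(normalized count + 1) between pairs were 0.64 (Atf3 with Ier2) to 0.98 (Jun with Egr1, and Fosb with Jund). Without vehicle replicate 3 they were 0.34 (Atf3 with Ier2) to 0.97 (Jun with Egr1), over 10 libraries. All points share the libraries' depth and scaling. Among 348 other genes averaging at least 50, those most correlated with the members' mean were Klf6 (r = 0.97), Eef2 (0.97), Ywhab (0.97), RP23-81C12.3 (0.96) and Msn (0.96), over 11 libraries. Without vehicle replicate 3 these 5 correlations were 0.90 (Msn) to 0.94 (Ywhab), and 2 of the 5 genes (Ywhab and Eef2) were still among the first 5. Klf6, a Krüppel-like factor, had 185 and 82.6 normalized counts at day 1, 68.3, 42.7 and 74.8 with Sfrp2, and 56.1, 263 and 9.35 with vehicle, against 163, 190 and 212 before MI.

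Other genes of the pathway were read from lists of known dimer partners, signalling genes and targets. Their counts stand beside the shares over all genes in the same limma fits, 21.3% higher and 2.65% lower at day 1 and 48.8% higher and 8.82% lower with Sfrp2, each against pre-MI. Among genes averaging at least 50, 35.5% were lower at day 1 and 84% with Sfrp2. Of the 15 listed other bZIP partners of AP-1, 3 rose at day 1 (21.3% of all genes did) and 3 rose and 2 fell with Sfrp2 (48.8% and 8.82% of all genes). Maf, a large Maf factor, was at 62.2 ± 1.29 at day 1 (SD, n = 2) against 3.53 ± 1.23 before MI (limma's adjusted p = 0.00572). Fosl2, the Fos relative Fra-2, had 48.4 and 47.1 at day 1 against 20.8, 12.5 and 23.9 before MI, and rose by 1.33 on the log2 scale (SE 0.320, limma's adjusted p = 0.0432). With Sfrp2, Atf5 fell to 6.72 ± 1.80 against 17.9 ± 7.87 (SD, n = 3 each) and Jdp2, a repressor that pairs with Jun, was at 4.26 ± 0.600 against 0.976 ± 0.907. The list's median log2 difference was 0.30 at day 1 and -0.04 with Sfrp2, beside 0.70 and 1.27 for all genes. Summed levels of macrophage and monocyte markers were 316 and 475 at day 1 and 162 to 223 with Sfrp2, against 12.5 to 25.1 before MI. They rose in 7 of 9 such markers at day 1 and 8 of 9 with Sfrp2, and their part in the rise of Maf was not tested.

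Of 18 other immediate early transcription factors, 1 rose at day 1, where 21.3% of all genes rose. With Sfrp2 3 rose and 4 fell, where 48.8% of all genes rose and 8.82% fell. Cebpb, a factor of inflammation, had 55.6 and 103 at day 1 against 6.62, 3.59 and 13.6 before MI (limma's adjusted p = 0.0197). In the Sfrp2 libraries the Krüppel-like factors of endothelium Klf2 and Klf4 fell, Klf2 to 32.1 ± 13.2 against 110 ± 9.85 and Klf4 to 21.7 ± 3.90 against 82.1 ± 33.6 (SD, n = 3 each), with limma's adjusted p of 0.00181 and 0.00216. Klf6 fell by 1.62 (SE 0.290). Summed endothelial markers were 306 to 834 with Sfrp2 against 3535 to 3680 before MI, with 10 of 10 markers lower. Cardiomyocyte markers summed to 346 to 575 against 2524 to 4391, with 9 of 10 lower and 1 higher. Their part in the fall of Egr1, Jun and these factors was not tested.

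Feedback inhibitors of the same signals fell in 8 of 19 listed genes and rose in 1 with Sfrp2, and at day 1 rose in 1 of 19 and fell in none. Of all genes, 8.82% fell and 48.8% rose with Sfrp2, and 21.3% rose at day 1. Dusp1, a phosphatase of MAP kinases, had 104, 70.3 and 126 with Sfrp2 against 301, 278 and 454 before MI, a log2 difference of -1.78 (SE 0.317, limma's adjusted p = 0.00178). Nab1, a corepressor of Egr proteins, fell to 7.50 ± 2.13 against 22.7 ± 1.17 (SD, n = 3 each), and Zfp36l1, which destabilizes short-lived mRNAs, to 23.6 ± 2.79 against 71.3 ± 20.8. Tnfaip3, an inhibitor of NF-kappaB, was higher both with Sfrp2 (31.0, 18.2 and 18.0) and at day 1 (21.8 and 11.5) than before MI (3.78, 3.59 and 4.54).

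Upstream kinases and ternary complex factors fell in 3 of 22 listed genes at day 1 and 6 of 22 with Sfrp2, and none rose, where 2.65% and 8.82% of all genes fell. Srf, the serum response factor, had 12.9 and 11.5 at day 1 against 27.4, 34.1 and 32.9 before MI, and fell by 1.30 on the log2 scale (SE 0.211, limma's adjusted p = 0.0145). Mapk3, the kinase ERK1, and the ternary complex factor Elk4 also fell at day 1, and Mapk3, Elk3, Elk4 and Nras fell with Sfrp2. Heat shock genes, which respond to cell stress, fell in 3 of 13 at day 1 (Hspa1b, Bag3 and Dnaja1) and 8 of 13 with Sfrp2, and none rose, beside the same shares of all genes and the 35.5% and 84% of genes averaging at least 50. Hspa8 fell to 10.0 ± 1.65 with Sfrp2 against 40.8 ± 6.82 before MI (SD, n = 3 each).

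Of the known target genes of AP-1 and Egr1, 7 of 19 rose and none fell at day 1, and 9 rose and 3 fell with Sfrp2, where 21.3% and 48.8% of all genes rose. Cd44, an adhesion receptor, had 147 and 165 at day 1 against 15.1, 3.59 and 10.2 before MI, a log2 difference of 4.06 (SE 0.578, limma's adjusted p = 0.00984). Ccl2, a monocyte chemokine, had 56.5 and 42.5 against 1.89, 0 and 1.14. Several of these targets, Spp1 and Ccl2 among them, are also known from macrophages. In the vehicle comparison with pre-MI none of the 6 lists had a called gene by limma, where 0 of all genes were called.

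The single cardiomyocyte library of sham mice had 190259 reads and summed cardiomyocyte markers of 250, below each pre-MI c-Kit(+) library (2524 to 4391), with Pln and Mb at 0, so its label was not borne out by these markers. It held 47 reads of the 8 members and listed Fos at 0. The c-Kit transcript itself, Kit, was at 3.44 to 5.65 at day 1, 6.34 to 13.8 with Sfrp2, and 8.52 to 33.7 with vehicle, against 5.68 to 18.0 before MI. The vehicle value of 33.7 was that of replicate 3, on 18 reads, and the other vehicle libraries had 19.5 and 8.52. Kit was listed at 0 in the cardiomyocyte library. Before MI both the 10 endothelial markers (3535 to 3680) and the 10 cardiomyocyte markers had far higher summed levels than Kit. A sum over 10 genes is unlike the level of 1 gene, so this does not measure the make-up of the cells.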

How the data were processed

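cDNA was made from total RNA with an amplifying pico-scale kit, per the labels' protocols. Trimming used Trim Galore with Cutadapt and kept reads of 20 nt or longer. STAR alignments to GRCm38 at a single place were counted per gene by HTSeq, per the series' design text. The authors kept genes reaching 10 reads in any library. The deposited signal is a gene count divided by a DESeq2 size factor of its library, per the file headers and that text. Beside it the authors deposited log2 fold changes, Wald statistics (a score) and p-values. Tool versions were not stated.

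Here the values of 7 tables were joined by gene. All values gave whole reads within a tolerance of 0.001. Because values were normalized, limma 3.58.1 (R 4.3.3) with a trended variance was fitted to log2(value + 1) of both groups compared, over 15223 genes, with Benjamini-Hochberg adjustment and a threshold of 0.05. Such differences understate changes of genes with low values. edgeR 4.0.16, quasi-likelihood, and DESeq2 1.42.0 on recovered reads were alternatives, as were other pseudocounts, filters, scalings, a fit over all 11 libraries, a replicate block, weights per library and leaving out each library. The fits were tested on simulated data, where limma's day 1 fit also called unchanged genes with a mean under 10 and none above. The simulated counts had the same spread setting for all genes and no shift of most genes between groups. They therefore do not show how often calls in these data are false. All 8 members had means above 10 in both groups of the day 1 comparison, but Ier2 averaged 7.84 in the Sfrp2 libraries, where it was called. Exon lengths and positions came from GENCODE M21 (GRCm38), which matched 15061 genes. Recovered reads carry no molecular identifiers, so read numbers show counting error only. Members and lists were chosen with earlier results of these data known. All 8 members are named in every comparison, and up to 4 genes per list by smallest unadjusted p, plus the 5 genes averaging 50 or more that correlate best with the members' mean over 11 libraries. Same-numbered libraries did not deviate together, so no pairing was used. A result for 1 further listed gene is not reported here.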

Additional observations from a re-analysis of the deposited data

Results flagged for a closer look

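Jund was above the background of its own library in the single cardiomyocyte library of sham mice, which enters no comparison. Its value was 44.29 normalized counts on 20 reads. Per exon kb that was 26.6, against a background level of 13.2 per kb taken from sensory receptor genes, and it was the 1 member of 8 above that level. The pre-MI c-Kit(+) libraries had 48.3, 52.0 and 73.8. The library has no replicate, and its 10 cardiomyocyte markers summed to 250 normalized counts, with Pln and Mb at 0, against 2524 to 4391 in pre-MI libraries. No group had more than 3 libraries, so no library was tested as an outlier within a group.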

How the results depend on the processing

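Egr1 and Jun stayed lower and called with Sfrp2 against pre-MI under every alternative run. Fosb was also called lower in that comparison by edgeR (-1.42), DESeq2 (-1.08) and limma with a pseudocount of 5 (-1.03). It was likewise called under both filters on the mean, centring, scaling outside mitochondrial genes and the replicate block, and without pre-MI replicate 1. Vehicle replicate 3 held 35 reads of the 8 members, so their values there carry a large counting error. Against pre-MI, limma called 0 genes without it, as with it, and 6421 without vehicle replicate 2. Where a day 1 library is left out, the lone one is assumed to vary like the other group. Scaling to abundant genes was chosen after seeing the data. Deviations of same-numbered libraries from their group means correlated between -0.63 and 0.24, over genes averaging at least 10. These libraries were therefore not treated as pairs.

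For day 1 against pre-MI, genes called (3638) became 592 (mean of at least 10), 255 (mean of at least 50), 895 (1 fit of all 11 libraries), 11 (replicate block) and 873 (DESeq2). The members called (0) became 2 (mean of at least 10), 2 (mean of at least 50), 4 (centring), 2 (scaling outside mitochondrial genes), 3 (edgeR) and 1 (DESeq2). For vehicle against pre-MI, genes called (0) became 4245 (1 fit of all 11 libraries), 1501 (replicate block), 8282 (library weights), 1907 (edgeR), 861 (DESeq2) and 150 (scaling to abundant genes). The members called (0) became 2 (1 fit of all 11 libraries) and 6 (library weights). For Sfrp2 against pre-MI, genes called (8768) became 1673 (mean of at least 10) and 338 (mean of at least 50). The members called (3) became 8 (centring), 5 (scaling outside mitochondrial genes), 5 (replicate block) and 5 (edgeR). For Sfrp2 against vehicle, genes called (0) became 2185 (library weights). The members called (0) became 6 (library weights). For vehicle against day 1, genes called (0) became 2 (replicate block), 2250 (library weights) and 1 (DESeq2). The members called (0) became 5 (library weights). For Sfrp2 against day 1, genes called (22) became 40 (mean of at least 10), 6 (scaling outside mitochondrial genes), 0 (1 fit of all 11 libraries), 104 (replicate block), 1024 (library weights), 121 (edgeR), 244 (DESeq2) and 338 (scaling to abundant genes). The members called (0) became 1 (library weights) and 1 (DESeq2).

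Log2 differences of members changed sign as follows, and the cause was not tested. Under the replicate block the values were, in vehicle against day 1, Fos 0.33, Jun 0.28 and Atf3 0.016, in Sfrp2 against day 1, Fos -0.079. Under DESeq2 the values were, in vehicle against pre-MI, Fosb 0.025, Jund 0.16 and Atf3 0.36, in Sfrp2 against pre-MI, Junb 0.020, in Sfrp2 against vehicle, Fos -0.48, Fosb -1.66, Junb -0.36, Jund -1.10, Atf3 -1.12 and Ier2 -0.30, in vehicle against day 1, Fos 0.20, Fosb 0.067, Jun 0.37 and Atf3 0.035, in Sfrp2 against day 1, Fos -0.25. Under edgeR the values were, in vehicle against pre-MI, Fosb 0.26, Junb 0.11, Jund 0.35 and Atf3 0.59, in Sfrp2 against vehicle, Fos -0.28, Fosb -1.45, Junb -0.16, Jund -0.90, Atf3 -0.94 and Ier2 -0.16, in vehicle against day 1, Fos 0.029 and Jun 0.21, in Sfrp2 against day 1, Fos -0.28. Under centring the values were, in day 1 against pre-MI, Fosb -0.84, Junb -0.13, Jund -0.64 and Atf3 -0.60, in Sfrp2 against vehicle, Fosb -0.11 and Jund -0.091, in Sfrp2 against day 1, Fos -0.25. Under scaling outside mitochondrial genes the values were, in day 1 against pre-MI, Fosb -0.14, in Sfrp2 against vehicle, Jun 0.037 and Egr1 0.10. Under library weights the values were, in Sfrp2 against pre-MI, Junb 0.026 and Atf3 0.37, in Sfrp2 against vehicle, Jun 0.64 and Egr1 0.76. Under scaling to abundant genes the values were, in Sfrp2 against pre-MI, Fos 0.029, Junb 0.70, Jund 0.21 and Atf3 0.58, in Sfrp2 against vehicle, Jun 0.21 and Egr1 0.27.

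Leaving out 1 library in turn gave these ranges (shares in percentage points): for day 1 against pre-MI, genes called 1996 to 3580, members called 0 to 1, Fosb -0.031 to 0.61 and share of Ier2 -1.75 to 0.11. For vehicle against pre-MI, genes called 0 to 6421, members called 0 to 6, Junb -1.88 to 0.18, Jund -1.82 to 0.12 and Atf3 -2.28 to 0.48. For Sfrp2 against pre-MI, Junb -0.58 to 0.40, Atf3 -0.56 to 0.14 and share of Fosb -0.24 to 0.47. For Sfrp2 against vehicle, Fos -0.19 to 2.39, Fosb -0.98 to 1.47, Jun -0.88 to 0.83, Junb -0.29 to 1.76, Jund -0.73 to 1.22, Egr1 -0.86 to 0.98, Atf3 -0.67 to 2.09, Ier2 -0.14 to 1.11, share of Junb -0.056 to 4.60, share of Atf3 -0.059 to 2.73 and share of Ier2 -0.46 to 1.57. For vehicle against day 1, genes called 0 to 1, Fos -2.25 to 0.33, Jun -1.43 to 0.28 and Atf3 -2.75 to 0.016. For Sfrp2 against day 1, genes called 0 to 20 and Fos -0.47 to 0.76.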
